A study of Mus musculus with 16 samples.

Results

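Transcripts of 10 macrophage genes, Cd68, Csf1r, Cd163, Mrc1, C1qa, C1qb, C1qc, Lyz2, Aif1 and Tyrobp, were followed in the quadriceps of mice on a control or a high-fat diet, before and after exercise. The genes were taken by symbol from the deposited expression table, which lists 23970 symbols, by a rule that names them and uses no measured value, though earlier results of these data were known when it was made. All 10 had a mean of at least 0.5 FPKM and so were among the 11256 genes tested. FPKM divides the fragments of a gene by its transcript length and by the size of the library. This puts genes and libraries on a shared scale, but the summed FPKM still differed between libraries, so other scalings were tried as well. The 16 libraries came from C57BL/6NTac mice of 16 weeks, male according to the Methods, in 4 groups of 4. CON-pre and HFD-pre mice had been fed a control diet (CON) or a high-fat diet (HFD) and were sampled at rest. CON-post and HFD-post mice had received the same diets and were sampled 3 h after 1 bout of treadmill running to exhaustion. The pre and post mice were different animals, and the pre mice had been handled in the same way apart from the bout, food withdrawal included.

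Macrophages are phagocytes that remain in most tissues for long periods and clear dead cells, debris and microbes. In skeletal muscle they lie in the connective tissue between the fibres, are few at rest, and increase greatly after injury, when they remove damaged fibres and then assist regeneration. Obesity is known for drawing macrophages into adipose tissue. The 10 genes cover several sides of this cell. Csf1r encodes the receptor through which the growth factors CSF1 and IL-34 keep macrophages alive, and Tyrobp encodes the signalling adaptor of several receptors on their surface. Cd163 (the scavenger receptor of haemoglobin bound to haptoglobin) and Mrc1 (the mannose receptor CD206) are carried chiefly by resident cells. C1qa, C1qb and C1qc encode the chains of the complement recognition protein C1q, Cd68 a glycoprotein of lysosomes, Lyz2 the lysozyme of myeloid cells, and Aif1 an actin-binding protein also known as IBA1.

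The whole muscle was sequenced, so fewer macrophages and less RNA per macrophage cannot be told apart in any of these values. All 10 muscle markers looked at passed the minimum of 0.5 FPKM. Among markers of other blood cells, 0 of the 9 T and NK cell genes and 0 of the 5 B cell genes in the table passed it. Those that passed were 6 of 9 neutrophil and marrow, 4 of 6 mast cell, 2 of 7 dendritic cell and 6 of 7 red blood cell genes. The summed FPKM of a library lay between 283575 and 329282, and a relative depth obtained from low values ranged from 0.706 to 1.12 across the 16 libraries. CON-post replicates 1 and 2 stood at opposite ends for the macrophage genes, as described next, and the medians of the 10 genes and of the macrophage lists with diet that rest on them are given without them or as a range over the fits that leave out libraries.

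Lysozyme was by far the most abundant of these transcripts. Lyz2 had a mean of 56.1 FPKM over the 16 libraries and was the highest of the 10 genes in each of them. The 3 C1q chains followed at 19.8 (C1qc), 17.8 (C1qa) and 16.8 FPKM (C1qb), and they held ranks 2 to 4 in every library in changing order. Tyrobp (8.39 FPKM), Csf1r (6.73), Cd68 (5.68), Cd163 (5.21) and Mrc1 (4.99) formed a lower tier whose order varied from library to library. Aif1 was last in all 16 libraries at a mean of 0.558 FPKM. Among all genes tested, these means ran from percentile 1.53 (Aif1) to percentile 94.6 (Lyz2).

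**Figure D1:**
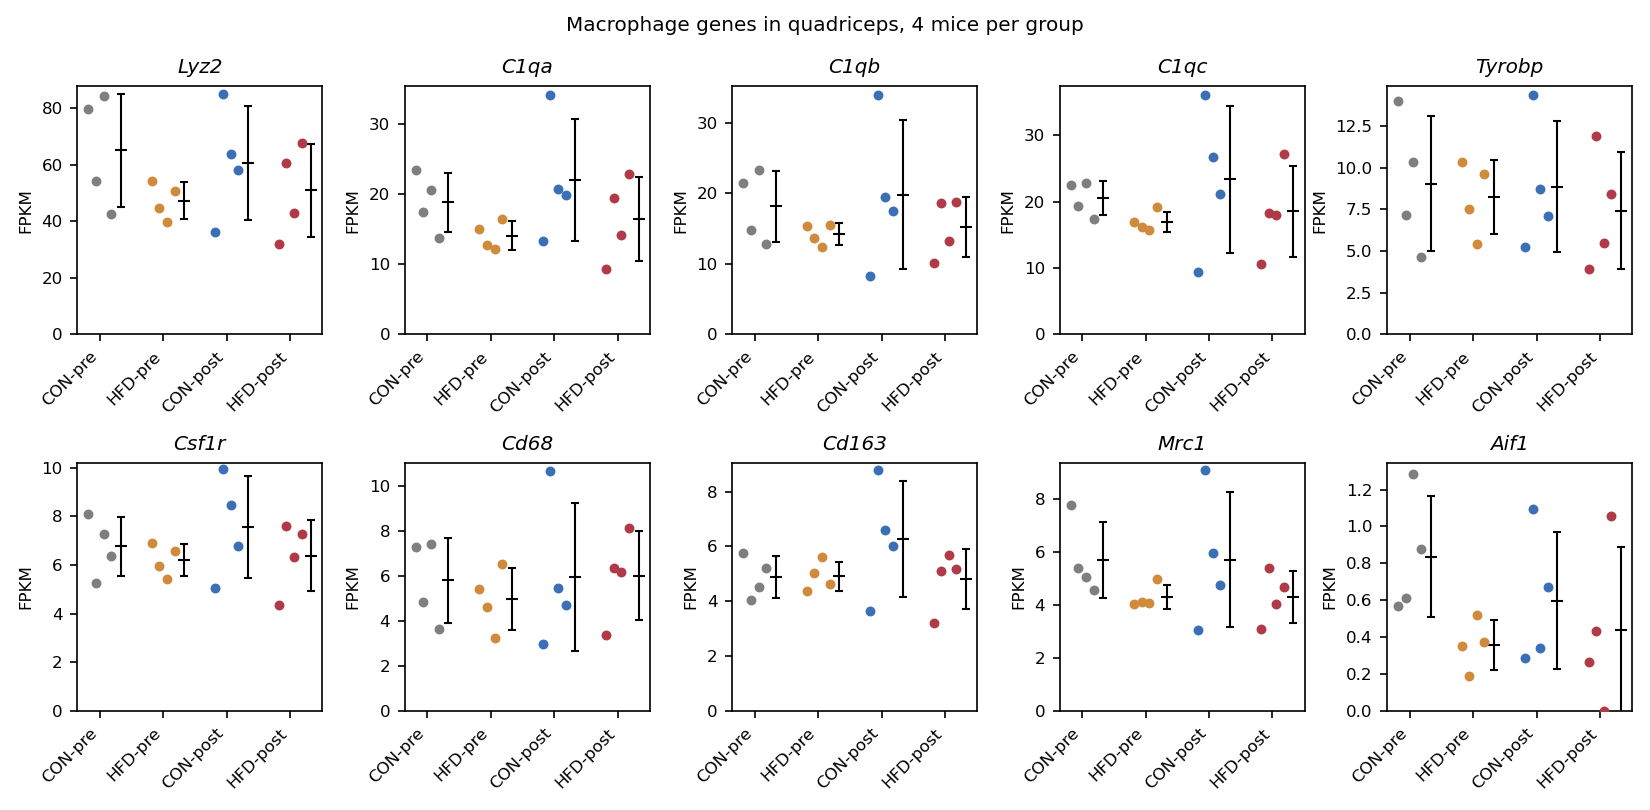
FPKM (vertical axes, from 0) of the 10 macrophage genes in the 4 groups; each point is 1 mouse in replicate order, and the bar beside the points is the mean ± SD (n = 4). CON-post spans the widest range for most genes, and Aif1 is the only gene for which all HFD-pre points lie below all CON-pre points.

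Lyz2 was measured in CON-pre at 79.8, 54.3, 84.3 and 42.7 FPKM and in HFD-pre at 54.2, 44.7, 39.7 and 50.9 FPKM. In CON-post it was measured at 36.1, 85.2, 63.8 and 58.3 FPKM and in HFD-post at 32.2, 60.8, 43.0 and 67.9 FPKM. Every group overlapped every other, and the group means differed by less than the spread among CON mice, at 65.3 ± 20.0 (CON-pre), 60.8 ± 20.2 (CON-post), 47.4 ± 6.49 (HFD-pre) and 51.0 ± 16.3 FPKM (HFD-post; SD, n = 4). The neighbouring gene Lyz1 is nearly identical in sequence, so reads could have been divided between the pair. The FPKM ratio of Lyz2 to Lyz1 ranged from 9.45 to 30.9 with a median of 19.3, and the Lyz2 values carry that uncertainty.

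The C1q genes encode chains that are assembled into 1 protein, which binds antibody complexes and dying cells and starts the classical complement cascade. In the GENCODE M1 annotation of the mm9 genome (NCBIM37) they lie side by side on the minus strand of chromosome 4, C1qb at chr4:136436044-136442102, C1qc at chr4:136445719-136448980 and C1qa at chr4:136451832-136454718. C1qa was measured at 23.5, 17.4, 20.5 and 13.8 FPKM in CON-pre and at 15.1, 12.7, 12.1 and 16.4 FPKM in HFD-pre. After exercise it was measured at 13.3, 34.1, 20.7 and 19.9 FPKM in CON-post and at 9.28, 19.5, 14.1 and 22.9 FPKM in HFD-post. The highest CON-post library, replicate 2, held 2.56 times the C1qa of the lowest, replicate 1, whereas the HFD-pre libraries differed by no more than 1.36 times. C1qb spanned 4.08 times within CON-post (8.30 to 33.9 FPKM) and C1qc 3.82 times (9.46 to 36.1 FPKM). The sum of the chains ranged from 30.0 FPKM in HFD-post replicate 1 to 104 FPKM in CON-post replicate 2, while the share of each chain moved far less. C1qa made up 30.0 to 42.9% of the sum (median 32.0%), C1qb 26.7 to 35.0% (median 30.7%) and C1qc 30.4 to 39.9% (median 36.8%). CON-post replicate 1 had the highest C1qa share and the lowest shares of C1qb and C1qc.

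Because these genes moved together, the bases before their starts were read for GAGGAA, the core of the site of PU.1 (Spi1), a transcription factor of myeloid cells, and for TATAAA. RefSeq promoters (GRCm38.p6, 250 bases before the start, both strands) were at hand for 7 of the 10 genes, Mrc1, C1qb, C1qc, Cd163, Lyz2, Cd68 and Aif1. GAGGAA was present in 5 of the 7, against 23.3% of 32851 mouse promoters of the same length, and TATAAA in 0 of the 7, against 12.4%. A match is a stretch of letters and not a measured binding site. The promoters of the 2 C1q genes and of Mrc1, which held 3 matches, are shown 5′ to 3′ in the direction of transcription, with GAGGAA or its reverse complement TTCCTC in capitals.
C1qb (chr4:136886201-136886450, minus strand): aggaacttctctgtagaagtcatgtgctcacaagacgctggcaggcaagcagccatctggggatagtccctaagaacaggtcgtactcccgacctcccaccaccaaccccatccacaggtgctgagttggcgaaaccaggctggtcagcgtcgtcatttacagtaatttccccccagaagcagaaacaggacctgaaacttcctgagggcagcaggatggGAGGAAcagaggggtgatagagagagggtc
C1qc (chr4:136892915-136893164, minus strand): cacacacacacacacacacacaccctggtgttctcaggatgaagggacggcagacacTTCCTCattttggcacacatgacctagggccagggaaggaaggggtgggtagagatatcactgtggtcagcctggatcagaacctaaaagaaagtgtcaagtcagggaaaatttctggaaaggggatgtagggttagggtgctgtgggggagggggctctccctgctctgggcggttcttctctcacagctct
Mrc1 (chr2:14229164-14229413, plus strand): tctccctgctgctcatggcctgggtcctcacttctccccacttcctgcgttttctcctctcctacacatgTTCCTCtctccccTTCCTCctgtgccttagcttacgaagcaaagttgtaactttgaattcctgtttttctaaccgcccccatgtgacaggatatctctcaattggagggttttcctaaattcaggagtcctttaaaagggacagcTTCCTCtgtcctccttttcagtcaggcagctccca
Counted from the start of the gene (the base before it is -1), the C1qb match begins at position -30, the C1qc match at -193 and the Mrc1 matches at -180, -167 and -35. Cd68 and Aif1 held 1 match each, and Cd163 and Lyz2 held 0.

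Mrc1 and Cd163, the resident-cell receptors, sat at similar levels. Mrc1 lies on chromosome 2 (chr2:14151041-14253684, plus strand) and contains the microRNA gene Mir511. Mrc1 was measured at 7.75, 5.41, 5.03 and 4.56 FPKM in CON-pre and at 4.01, 4.12, 4.07 and 4.97 FPKM in HFD-pre. After exercise it was measured at 3.05, 9.07, 5.95 and 4.75 FPKM in CON-post and at 3.09, 5.37, 4.02 and 4.69 FPKM in HFD-post. The HFD-pre libraries lay close together at the lower edge of CON-pre and overlapped it through replicate 4 alone. Cd163 averaged 4.89 ± 0.759 in CON-pre, 4.91 ± 0.533 in HFD-pre, 6.26 ± 2.12 in CON-post and 4.80 ± 1.09 FPKM in HFD-post (SD, n = 4), so its highest mean was in CON-post, where its range of 3.63 to 8.78 FPKM enclosed all libraries of both pre groups.

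Csf1r, Tyrobp and Cd68 overlapped between all groups. Csf1r (chr18:61265226-61291803, plus strand, overlapping Hmgxb3 on the other strand) averaged 6.76 ± 1.23 in CON-pre, 6.22 ± 0.664 in HFD-pre, 7.56 ± 2.12 in CON-post and 6.39 ± 1.47 FPKM in HFD-post (SD, n = 4), and had the smallest spread within groups of the 10 genes. Tyrobp had the largest and ranged from 3.91 to 14.4 FPKM over all libraries, with a mean between 7.43 in HFD-post and 9.05 FPKM in CON-pre. Cd68 ranged from 2.96 to 10.7 FPKM, both ends of which fell in CON-post. Of the CSF1 receptor's ligands, Csf1 averaged 3.60 ± 0.862 in CON-pre, 3.23 ± 0.509 in HFD-pre, 3.44 ± 0.837 in CON-post and 3.24 ± 0.794 FPKM in HFD-post (SD, n = 4). Il34 averaged 2.01 ± 0.322, 2.34 ± 0.373, 2.42 ± 0.225 and 2.76 ± 0.709 FPKM in the same order. Neither ligand passed the test in any comparison.

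Aif1 rested on very few reads. Its FPKM came in steps that correspond to whole fragments, and the values fell within 0.1 of a whole number in 15 of the 16 libraries (largest distance 0.153). By those steps the CON-pre libraries held 4, 3, 9 and 7 fragments and the HFD-pre libraries 2, 1, 3 and 3. The CON-post libraries held 2, 8, 2 and 5, and the HFD-post libraries 2, 3, 0 and 6. In FPKM these are 0.571 to 1.28 in CON-pre, 0.189 to 0.521 in HFD-pre, 0.286 to 1.09 in CON-post and 0 to 1.06 in HFD-post. Aif1 was the only one of the 10 whose libraries did not overlap between HFD-pre and CON-pre, and its groups differ by a handful of fragments, 9 against 23 in sum.

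The question of the diet at rest was addressed by HFD-pre against CON-pre. The fitted value was lower in HFD-pre for 9 of the 10 genes, with a median log2 fold change of -0.28, but 0 of the 10 passed the test (limma on log2(FPKM + 0.5), adjusted p under 0.05) and 0 reached an unadjusted p under 0.05. Over all genes tested 0.346% passed (39 of 11256), 8.25% had an unadjusted p under 0.05, the median log2 fold change was -0.034, and 60.3% of genes had a fitted value below 0. Aif1 had the largest difference (log2 fold change -0.62 ± 0.30 SE, limma adjusted p = 0.614), and 1 of 10 genes with groups that do not overlap stands beside 5.62% of all genes tested. Lyz2 followed at -0.42 ± 0.27 (adjusted p = 0.754), C1qa at -0.39 ± 0.27 (adjusted p = 0.776) and Mrc1 at -0.35 ± 0.24 (adjusted p = 0.768). Cd163, at 0.011 ± 0.20, was the gene with the value above 0. The 95% intervals of all 10 genes included 0, for instance from -0.96 to 0.18 for C1qa. A log2 fold change on this scale understates the difference of a gene as low as Aif1. Aif1 averaged 0.836 in CON-pre and 0.598 in CON-post but 0.359 in HFD-pre and 0.438 FPKM in HFD-post, so it reached the minimum of 0.5 FPKM through the CON groups, and its p-values with diet are given as a description.

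After exercise, HFD-post against CON-post gave fitted values below 0 for 9 of 10 genes again, with a median of -0.26, while the median of all genes tested was 0.0038 and 48.7% lay below 0. In this comparison 0 of the 10 genes passed the test, 0 had an unadjusted p under 0.05, where 0.151% of all genes passed and 6.29% had an unadjusted p under 0.05. C1qa was at -0.41 ± 0.27 (SE, limma adjusted p = 0.925), Cd163 at -0.32 ± 0.20 (adjusted p = 0.916) and Mrc1 at -0.30 ± 0.24 (adjusted p = 0.950). Cd68 was the exception at 0.087 ± 0.32. The value depended on single libraries, since the median of the 10 was -0.51 without CON-post replicate 1 and -0.066 without CON-post replicate 2. It was -0.069 when HFD-post replicate 1 was left out, and -0.31 when both of those CON-post libraries were.

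**Figure D2:**
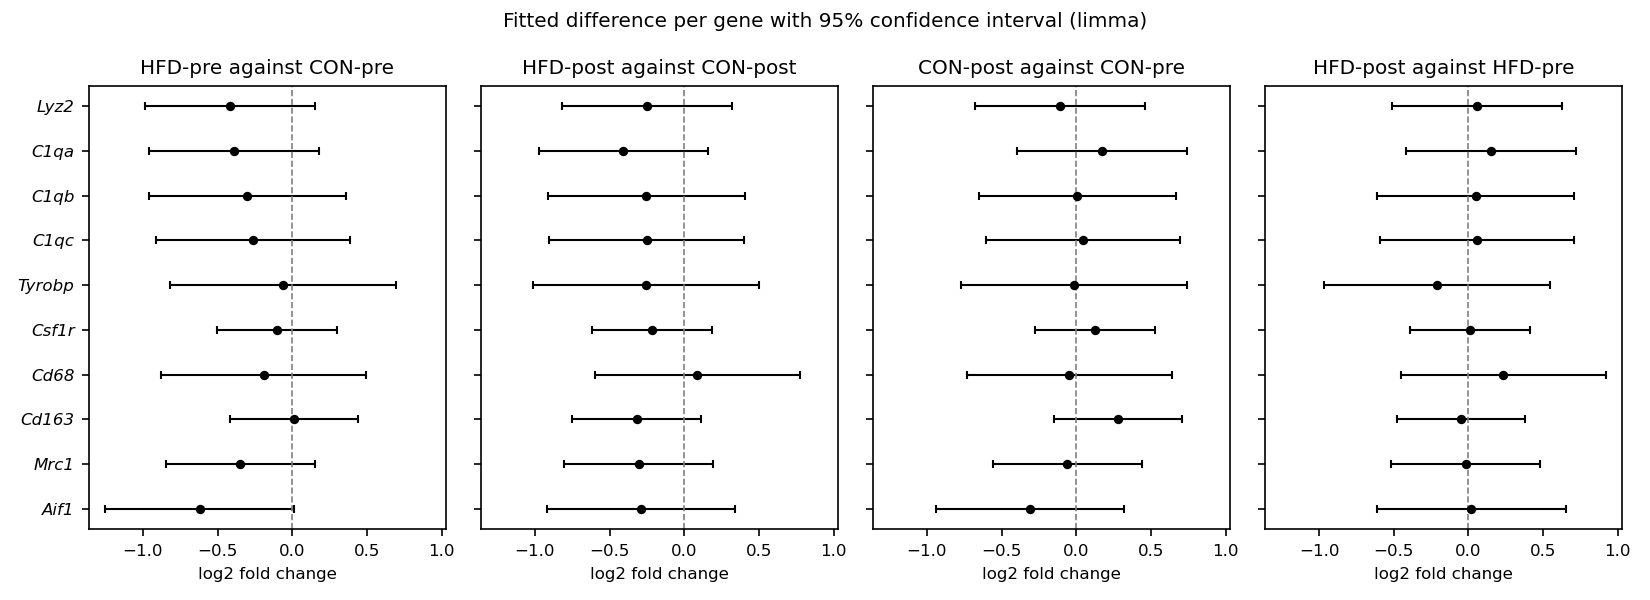
Fitted log2 fold change (horizontal axes) of each macrophage gene in the 4 comparisons between groups, with its 95% confidence interval from limma. Points for the diet comparisons lie below 0 for 9 of 10 genes each, and every interval crosses 0.

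Averaged over both exercise states, which uses 8 mice a diet, the HFD value was below the CON value for all 10 genes, from -0.45 (Aif1) to -0.053 (Cd68), with a median of -0.27 against -0.017 for all genes tested, of which 56.6% lay below 0. Of the 10, 0 passed the test and 1, Aif1, reached an unadjusted p under 0.05 (0.0462, limma adjusted p = 0.463). Among all genes 0.959% passed and 10.4% had an unadjusted p under 0.05. C1qa averaged 20.4 ± 6.56 FPKM in CON and 15.3 ± 4.33 in HFD libraries (SD, n = 8), a log2 fold change of -0.40 with an interval from -0.80 to 0.0036 (limma adjusted p = 0.481). Mrc1 averaged 5.70 ± 1.90 in CON and 4.29 ± 0.702 FPKM in HFD (log2 fold change -0.33, limma adjusted p = 0.523), and Lyz2 63.1 ± 18.8 and 49.2 ± 11.7 FPKM (log2 fold change -0.33, limma adjusted p = 0.591). The CON and HFD libraries overlapped for all 10 genes, where 0.391% of all genes did not. The median was -0.44 without CON-post replicate 1, -0.13 without CON-post replicate 2 and -0.32 without both. It was -0.13 with the mean of fibroblast markers as a covariate.

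For exercise, the values of the 10 genes were scattered about 0. CON-post against CON-pre gave 5 genes above and 5 below 0 with a median of -0.0041, from -0.31 for Aif1 to 0.28 for Cd163. HFD-post against HFD-pre gave 7 above and 3 below with a median of 0.035, the same as that of all genes tested, from -0.21 for Tyrobp to 0.23 for Cd68. In both, 0 of the 10 genes passed the test or had an unadjusted p under 0.05, where 1.11% of all genes passed in CON and 0.542% in HFD mice, and 11.1% and 11.7% had an unadjusted p under 0.05. Of all genes tested, 51.6% lay below 0 in CON and 40.7% in HFD mice. Across both diets 3.86% of all genes passed and again 0 of the 10 did, nor at an unadjusted p under 0.05 (18.5% of all genes), with a median of 0.039. The test of the difference between the responses, the diet by exercise interaction, had a median of 0.028 over the 10 genes and called 0 of 11256 genes (limma), of which 356 (3.16%) had an unadjusted p under 0.05, 0 of them among the 10. These comparisons share groups, so their values are not independent of each other. The medians of the 10 genes depended on single libraries. The CON median was 0.25 without CON-post replicate 1, -0.28 without replicate 2 and 0.012 without both. The HFD median was 0.20 without HFD-post replicate 1, and it was below 0 without HFD-post replicate 2 (-0.055) or 4 (-0.078) or HFD-pre replicate 3 (-0.0013). The median pooled over diets was 0.18 without CON-post replicate 1, -0.098 without replicate 2 and 0.056 without both. The interaction median was -0.25 without CON-post replicate 1, 0.27 without replicate 2 and 0.0011 without both. With the mean of adipocyte markers as a covariate the medians were -0.13 in CON, -0.21 in HFD and -0.16 pooled over diets.

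Mice of 1 group differed among themselves in the macrophage genes, and the genes went up and down together. The SD within groups, on the log2 scale, had a median of 0.447 over the 10 genes against 0.176 over all genes tested, and ranged from 0.298 (Csf1r) to 0.578 (Tyrobp). The share of their variance that lay between the 4 groups had a median of 14.2%, against 22.9% for all genes tested. CON-post replicate 2 was the highest library of the 16 for 9 of the 10 genes and the highest of its group for all 10. CON-post replicate 1 was the lowest of its group for all 10, and HFD-post replicate 1 the lowest of its group for 9. The lowest library of all 16 was HFD-post replicate 1 for 5 genes, CON-post replicate 1 for 4 and HFD-post replicate 3, with Aif1 at 0, for 1. The summed FPKM of the 10 genes ranged from 112 to 191 in CON-pre, 104 to 135 in HFD-pre, 87.4 to 243 in CON-post and 80.4 to 171 in HFD-post.

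**Figure D3:**
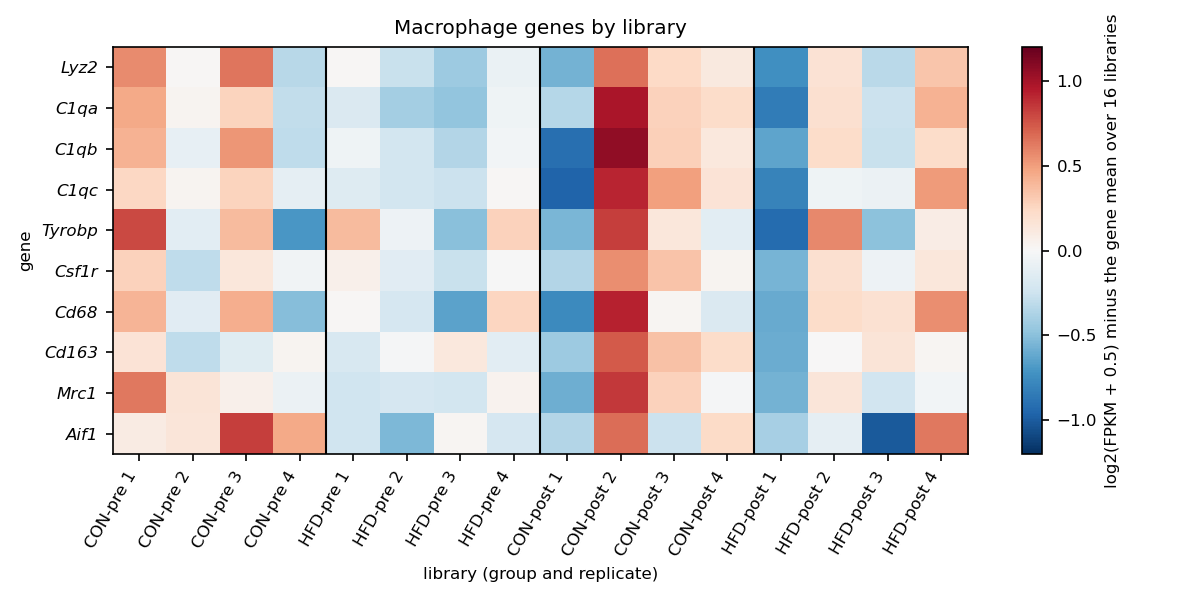
Deviation of each macrophage gene (rows) from its own mean over the 16 libraries (columns, by group and replicate), in log2(FPKM + 0.5). CON-post 2 is high and CON-post 1 and HFD-post 1 are low in nearly every row.

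Across the 16 libraries the Pearson correlation between pairs of the 10 genes had a median of 0.831 (45 pairs, 0.281 to 0.945), and Spearman's rho a median of 0.794. With the group means removed the median was 0.857, and without the 2 libraries farthest out it was 0.717. Over all pairs of genes tested the median correlation was 0.081, and 0.099 with the group means removed. The points share libraries and the scaling of each library, and these correlations are given as a description. Pairs that include Aif1 had the weakest relation, with a median of 0.496, and the 3 pairs of C1q chains lay between 0.888 and 0.928.

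The genes most like the mean of the 10, among those tested and by correlation over the 16 libraries, were Fcgr3 (r = 0.963), Itgam (0.957), Ifitm3 (0.944), Laptm5 (0.937), Hmha1 (0.928), Ecm1 (0.927), Abl2 (0.910), Pf4 (0.909), Lgmn (0.909) and Relb (0.906). Fcgr3, an activating receptor for antibody complexes, was measured at 2.71, 7.80, 5.71 and 4.51 FPKM in CON-post, with the same lowest and highest mouse as the 10 genes. Itgam encodes the CD11b integrin of myeloid cells and Laptm5 a lysosomal protein of blood cells. With the group means removed, the 5 most alike were Fcgr3 (0.962), Laptm5 (0.958), Itgam (0.957), Ifitm3 (0.951) and Ier3ip1 (0.945).

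Lists of markers showed which other transcripts moved with these libraries. The mean of 24 other macrophage and monocyte genes correlated with the mean of the 10 at r = 0.976, that of 14 genes of tissue-resident macrophages at 0.906 and that of 14 other complement genes at 0.921. Fibroblast markers moved with them as well (8 of 8 tested, r = 0.851, and 0.799 without the 2 libraries farthest out), and their summed FPKM ranged from 726 to 894 in CON-pre, 701 to 840 in HFD-pre, 699 to 1090 in CON-post and 741 to 921 in HFD-post. Mast cell markers, 4 of 6 tested, had a positive correlation too (r = 0.736, and 0.702 with the group means removed), with sums from 11.8 to 16.2 FPKM in CON-pre, 11.2 to 13.5 in HFD-pre, 8.56 to 17.1 in CON-post and 10.6 to 14.3 in HFD-post. The part of connective tissue and of mast cells in the differences between mice was not tested. The mean of muscle markers correlated at 0.439, of endothelial markers at 0.406 (0.595 with the group means removed), of red blood cell markers at 0.291, of adipocyte markers at 0.282 and of neutrophil and marrow markers at 0.177. Neutrophil and marrow genes (6 of 9 in the table tested) had their own pattern, with sums from 1.25 to 169 FPKM in HFD-post alone.

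**Figure D4:**
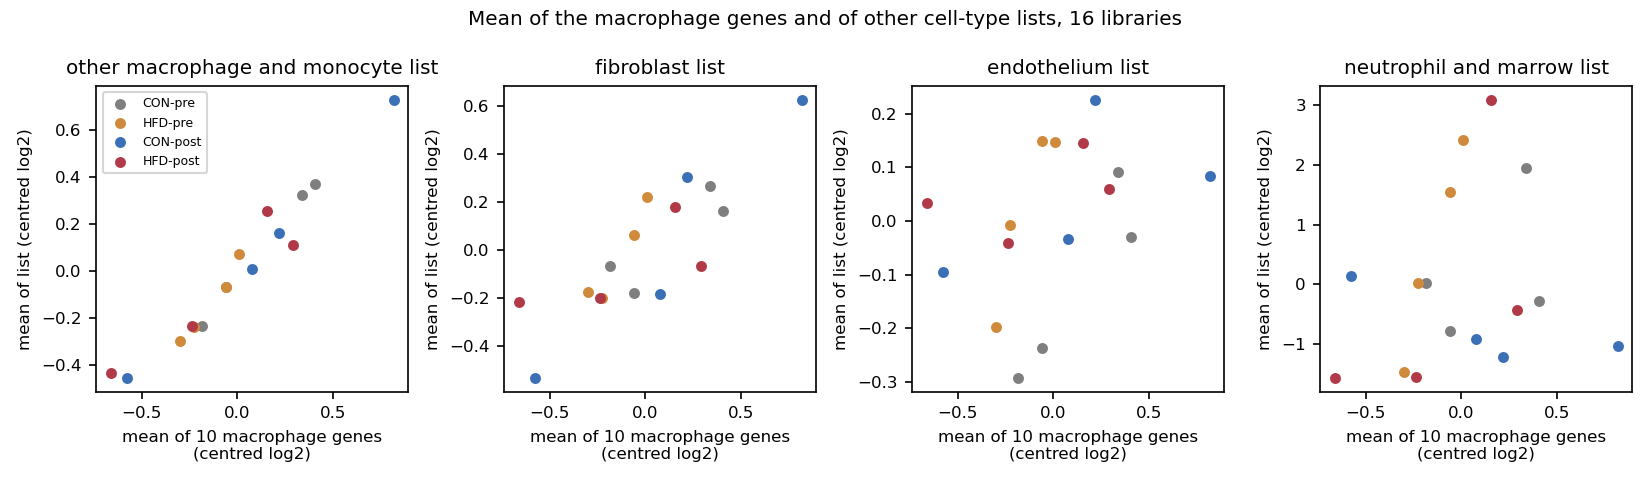
Mean of the centred log2 values of 4 marker lists (vertical axes) against that of the 10 macrophage genes (horizontal axes), 1 point per library, coloured by group. The macrophage and monocyte list follows the 10 genes closely, the fibroblast list less so (r = 0.851), and the relation is weaker for the endothelial (0.406) and weakest for the neutrophil list (0.177).

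Among 14 genes typical of resident macrophages, 1 passed the test in the comparison of diets pooled over exercise states, where 0.959% of all genes did. Of the 14 tested, 14 had fitted values below 0 in HFD-pre against CON-pre (median -0.31, with 60.3% of all genes below 0) and 14 in HFD-post against CON-post (median -0.37, with 48.7% of all genes below 0). The second median was -0.49 without CON-post replicate 1, -0.20 with 12 of 14 below 0 without CON-post replicate 2, -0.32 with 13 below 0 without both, and -0.25 with 13 below 0 without HFD-post replicate 1. In the pooled diet comparison the median was -0.36, 9 of 14 had an unadjusted p under 0.05 (10.4% of all genes did), and Cbr2 was called. That median was -0.45 without CON-post replicate 1, -0.28 without replicate 2 and -0.38 without both. The 9 genes were Folr2, Timd4, Cbr2, Cd209f, Cd209g, Pf4, Maf, Gas6 and Igf1. Whether other cells of the muscle supplied these transcripts was not tested. Cbr2, a carbonyl reductase of resident macrophages that is also known as adipocyte protein P27, was measured at 41.2, 28.7, 45.5 and 36.0 FPKM in CON-pre and at 18.2, 16.3, 16.2 and 21.6 FPKM in HFD-pre. In CON-post it was measured at 17.4, 38.2, 33.2 and 24.3 FPKM and in HFD-post at 11.4, 23.0, 19.6 and 14.5 FPKM. The groups did not overlap at rest and overlapped after exercise. Cbr2 fell on HFD with a pooled log2 fold change of -0.86 ± 0.16 (SE, limma adjusted p = 0.0147), and averaged 33.1 ± 9.23 in CON and 17.6 ± 3.80 FPKM in HFD (SD, n = 8). It passed in all 32 alternatives (adjusted p 0.000446 to 0.0403). At rest alone its log2 fold change was -1.03 (limma adjusted p = 0.0805), which did not pass. Lists of other cell types differed in direction in the pooled comparison. Neutrophil and marrow markers lay above 0 for 5 of 6 genes (median 0.50) and endothelial markers for 6 of 8 (median 0.090), with 0 called by limma and 0 and 1 at an unadjusted p under 0.05. The endothelial median ranged from 0.057 without HFD-pre replicate 1 to 0.11 without CON-pre replicate 3. Skeletal muscle markers lay below 0 for 8 of 10 genes (median -0.15), with 0 called by limma and 6 at an unadjusted p under 0.05, fibroblast markers for 7 of 8 (median -0.074) and mast cell markers for 4 of 4 (median -0.19), with 0 called by limma and 0 at an unadjusted p under 0.05 in both. The fibroblast median was -0.17 without CON-post replicate 1, -0.024 without replicate 2 and -0.079 without both, and the mast cell median -0.28, -0.13 and -0.26. The summed FPKM of the muscle markers ranged from 79604 to 86109 in CON-pre, 69194 to 75299 in HFD-pre, 69230 to 80287 in CON-post and 61556 to 74821 in HFD-post, and their part in the values of the resident genes was not tested. Adipocyte markers, 10 of 10 tested, had a pooled diet median of 0.14 (0.24 without HFD-post replicate 1), which covers calls in opposite directions. Lep, the hormone leptin of adipocytes, rose by a pooled log2 fold change of 2.54 ± 0.29 (SE, limma adjusted p = 0.000243) and passed in all 32 alternatives, whereas Cfd, described below, fell. Lep averaged 0.514 ± 0.442 in CON-pre and 0.632 ± 0.226 in CON-post against 4.52 ± 1.86 in HFD-pre and 8.46 ± 6.48 FPKM in HFD-post (SD, n = 4). The adipocyte list's summed FPKM ranged from 440 to 578 in CON-pre, 404 to 486 in HFD-pre, 499 to 676 in CON-post and 439 to 780 in HFD-post. With their mean as a covariate Cbr2 was at -0.91 (limma adjusted p = 0.0147). The lectins Cd209f and Cd209g had pooled values of -0.65 and -0.64 (limma adjusted p = 0.370 and 0.242).

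No other macrophage list held a gene called with diet. Of 24 other macrophage and monocyte genes, 19 lay below and 5 above 0 in the pooled diet comparison (median -0.20) and 0 were called by limma, with 3 (12.5%) at an unadjusted p under 0.05, where 56.6% of all genes tested lay below 0 and 10.4% had an unadjusted p under 0.05. The median was -0.32 without CON-post replicate 1, -0.096 without replicate 2 and -0.21 without both. Wfdc17, at -0.99 ± 0.41 (SE), had the largest value. Some lists had different signs at rest and after exercise, but their signs after exercise turned with single libraries. Genes linked to lipid-laden macrophages lay below 0 for 7 of 10 at rest (median -0.11) and above 0 for 7 of 10 after exercise (median 0.047), where Spp1, the secreted protein osteopontin (1.21 ± 0.53 SE, limma adjusted p = 0.738), and Cd9, a tetraspanin (0.28 ± 0.13 SE, limma adjusted p = 0.758), had an unadjusted p under 0.05. MHC class II genes lay below 0 for 5 of 6 at rest (median -0.097) and above 0 for 5 of 6 after exercise (median 0.10). This second median ranged from -0.13 without CON-post replicate 1 (6 of 6 below 0) to 0.26 without HFD-post replicate 1. It was -0.094 with 5 of 6 below 0 without CON-post replicates 1 and 2. After exercise the median of the lipid-laden macrophage genes ranged from -0.0285 without HFD-post replicate 2 to 0.14 without HFD-post replicate 3. The interaction of diet and exercise called 0 genes (limma), with Spp1 at 1.58 ± 0.75 (SE, unadjusted p = 0.0516). Pooled over exercise states, genes linked to lipid-laden macrophages gave 6 below and 4 above 0 with a median of -0.015, genes of alternative activation 5 below and 2 above with a median of -0.19, and MHC class II genes 3 and 3 with a median of -0.014. In these lists 0 genes were called with diet (limma), and 1, 1 and 0 had an unadjusted p under 0.05. Monocyte chemokines gave 7 below and 2 above, with 0 called (limma) and 2 of the 9, Ccl8 and Ccl6, at an unadjusted p under 0.05. The larger value was that of Ccl8, at -1.36 ± 0.33 (SE, limma adjusted p = 0.0722). Ccl8 was measured at 8.31, 4.43, 5.15 and 4.63 FPKM in CON-pre against 2.66, 2.06, 0.748 and 1.30 FPKM in HFD-pre, without overlap, as in 5.62% of all genes. In CON-post it was measured at 1.43, 13.4, 5.10 and 1.73 FPKM and in HFD-post at 1.33, 0.907, 1.87 and 1.52 FPKM, with overlap. The medians of these smaller lists moved with single libraries. The pooled median of the lipid-laden macrophage genes ranged from -0.064 without CON-pre replicate 4 to 0.10 without CON-pre replicate 3, and that of alternative activation from -0.28 without HFD-post replicate 4 to -0.067 without HFD-post replicate 1. The MHC class II median ranged from -0.14 without CON-post replicate 1 to 0.069 without HFD-post replicate 1. The chemokine median, -0.29 over all mice, ranged from -0.42 without CON-pre replicate 4 to -0.099 without CON-pre replicate 1. Of 14 other complement genes, 13 lay below 0 with a median of -0.23 (from -0.29 without CON-post replicate 1 to -0.11 without HFD-post replicate 1), and the one called was Cfd, the adipocyte-derived factor D of the alternative pathway (pooled log2 fold change -1.77 ± 0.19 SE, limma adjusted p = 0.000175). C3 was at -0.42 ± 0.12 (SE, limma adjusted p = 0.166).

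With exercise, 3 genes of the macrophage and inflammatory lists passed in the comparison pooled over diets, where 3.86% of all genes did, and 2 genes of the lists of other cell types. The 3 were 1 of 14 resident genes, 1 of 10 genes linked to lipid-laden macrophages and 1 of 4 inflammatory genes tested. The inflammatory gene, Cxcl10, entered the test through its levels after exercise. Of 24 other macrophage and monocyte genes 0 passed. Lyve1, a hyaluronan receptor of resident macrophages that lymphatic endothelium also carries, rose. It was measured at 5.55, 6.21, 5.62 and 5.23 FPKM in CON-pre and at 6.29, 10.8, 8.28 and 8.16 FPKM in CON-post, with no overlap, as in 5.82% of all genes. In HFD mice it was measured at 4.59, 4.70, 4.50 and 5.52 FPKM before and at 4.78, 8.87, 7.63 and 7.05 FPKM after exercise, with overlap through HFD-post replicate 1. The pooled log2 fold change of Lyve1 was 0.50 ± 0.11 (SE, limma adjusted p = 0.0202), and in the other resident genes 7 lay above and 6 below 0 with 0 called (limma) and 1 at an unadjusted p under 0.05.

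Cxcl10, a chemokine induced by interferons that attracts T cells, was at 0.214 ± 0.120 in CON-pre and 0.210 ± 0.184 FPKM in HFD-pre, both under the minimum mean, and at 1.52 ± 0.626 in CON-post and 1.14 ± 0.593 FPKM in HFD-post (SD, n = 4). It therefore entered the test through the groups in which it was high, and its p-values with exercise are given as a description. It rose in CON mice by a log2 fold change of 1.47 ± 0.27 (SE, limma adjusted p = 0.00917) without overlap, and in HFD mice had a value of 1.16 (limma adjusted p = 0.0861) with overlap. Of the other inflammatory genes on the list, Il1b, Tnf, Il6, Ptgs2, Il12b, Il1a, Nlrp3 and Ccl5 did not reach the minimum of 0.5 FPKM. The rest, Nos2, Il18 and Socs3, were tested. Pooled over diets, the 4 tested genes had 1 value above 0, that of Cxcl10, and 3 below (median -0.057). Of all genes tested, 46.3% lay below 0, and Cxcl10 was the only inflammatory gene called (limma). Lpl, counted here among genes of lipid-laden macrophages but expressed widely by muscle fibres and adipocytes, averaged 124 ± 13.8 before and 162 ± 25.5 FPKM after exercise (SD, n = 8). It rose by a pooled log2 fold change of 0.37 ± 0.091 (SE, limma adjusted p = 0.0307), a call that 13 of 32 alternatives did not keep, among them 7 of the 16 fits that leave out 1 mouse: replicates 1 and 2 of CON-pre, replicates 1, 2 and 3 of HFD-pre, and replicates 3 and 4 of CON-post (largest adjusted p over the alternatives 0.0715). In the same comparison 10 of 10 adipocyte markers had fitted values above 0, with a median of 0.28, and 1 was called. This was Plin4, which coats lipid droplets (log2 fold change 0.69 ± 0.13 SE, limma adjusted p = 0.00641), which is itself on that list and did not pass with the list's mean as a covariate (0.57, adjusted p = 0.0685). Of 8 endothelial markers 5 lay above 0 and Pecam1 was called, the adhesion molecule CD31 of endothelium that platelets and leukocytes also carry (0.36 ± 0.056 SE, limma adjusted p = 0.00141). It averaged 16.2 ± 1.20 in CON-pre, 16.7 ± 1.88 in HFD-pre, 20.3 ± 1.04 in CON-post and 22.0 ± 0.859 FPKM in HFD-post (SD, n = 4). With the mean of adipocyte markers as a covariate Lyve1 was at 0.38 (limma adjusted p = 0.151) and Lpl at 0.41 (adjusted p = 0.0707).

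**Figure D5:**
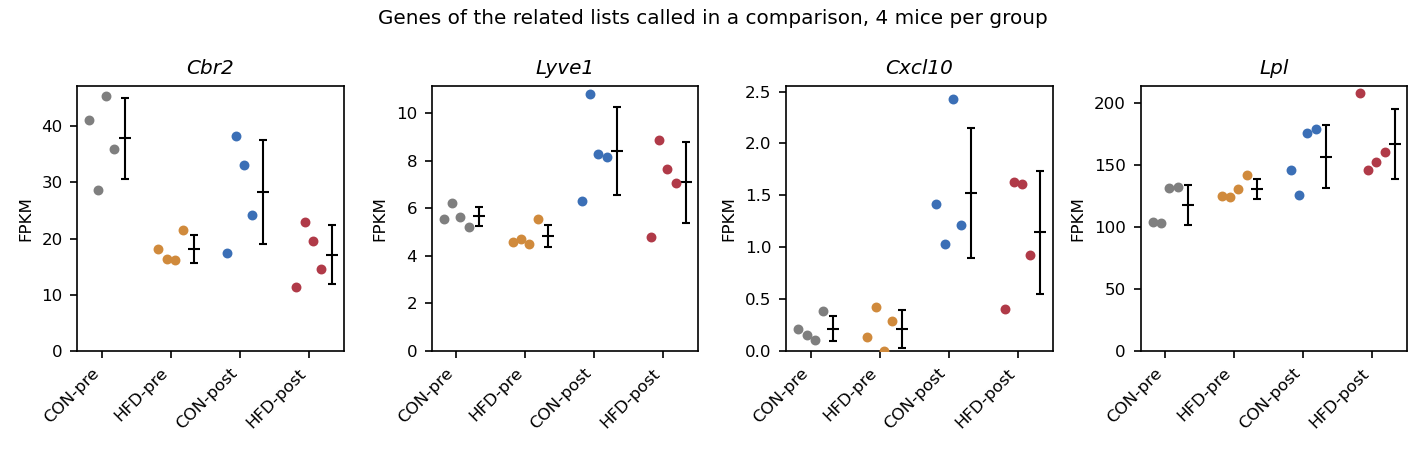
FPKM (vertical axes, from 0) of 4 genes of the related lists that passed the test in a comparison; each point is 1 mouse in replicate order, and the bar is the mean ± SD (n = 4). Cbr2 averages 37.8 and 28.3 in CON-pre and CON-post and 18.1 and 17.1 in HFD-pre and HFD-post, and Lyve1, Cxcl10 and Lpl are higher after exercise.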

How the data were processed

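RNA of 16 quadriceps was compared in 4 groups of 4, taken from the labels. According to the Methods, the authors made stranded mRNA libraries, trimmed adapters, checked the reads with FastQC, aligned them with TopHat to mm9 and estimated expression with Cufflinks; versions are not given in the sources used here. The authors deposited FPKM from Cufflinks, not counts, so no count model was used. The Methods give 1 approximate number of reads for all samples, and the depth of each library is unknown beyond the steps of low values. In the table of 24487 entries, 27 with names turned into dates were left out (0.0771% of FPKM) and the FPKM of 260 symbols with several entries were summed. Adgre1 is listed there as Emr1.

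Genes averaging 0.5 FPKM or more were compared in limma 3.58.1 (R 4.3.3). The input was log2(FPKM + 0.5), the variance trend was on, and a single fit covered the 4 groups without covariates. P-values were adjusted after Benjamini and Hochberg over all genes tested, and calls needed an adjusted p under 0.05. The code was tested on simulated data. Other values were computed with Python 3.11.15, numpy 2.4.6, pandas 2.3.3 and scipy 1.17.1, and figures with matplotlib 3.10.9. The alternatives were 14 planned settings, 16 fits without 1 library each and 3 settings chosen later, after seeing the data. The libraries are labelled as separate samples, and each is taken as 1 mouse according to the Methods.

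The 10 genes and the marker lists were chosen with earlier results of these data known. Named are the 10 genes, genes of the lists that passed in a comparison described, and others of them among the 3 largest differences in it. Also named are some list genes with an unadjusted p under 0.05, the inflammatory list, the genes most alike across libraries, and Csf1 and Il34. Fcgr3 and Ccl8 were chosen for values by library after their values were seen. The lists share some genes, and GO and KEGG annotations are not used here.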

Additional observations from a re-analysis of the deposited data

Results flagged for a closer look

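In 64 groups of 4 looked at for 16 genes, 2 held a library whose distance from the nearest other exceeded Dixon's critical share of the range, and chance gives about 1 in 20 groups. Mrc1 in HFD-pre was 4.97 FPKM in replicate 4 while the other three lay between 4.01 and 4.12 (ratio 0.889). Il34 in CON-post was 2.09 FPKM in replicate 1 while the others lay between 2.50 and 2.58 (ratio 0.838).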

How the results depend on the processing

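The count of macrophage genes called was 0 in every comparison under all alternatives. Leaving out 1 library at a time gave fitted log2 fold changes of both signs for the following genes. In HFD-pre against CON-pre, Tyrobp ranged from -0.33 to 0.17 and Cd163 from -0.069 to 0.087. In HFD-post against CON-post, Cd68 ranged from -0.17 to 0.39, C1qb from -0.60 to 0.051 and C1qc from -0.62 to 0.0025. In CON-post against CON-pre, Cd68 ranged from -0.35 to 0.21, Mrc1 from -0.30 to 0.18, Lyz2 from -0.30 to 0.12, Tyrobp from -0.28 to 0.22, C1qb from -0.30 to 0.35, C1qc from -0.21 to 0.41, Csf1r from -0.010 to 0.29 and C1qa from -0.062 to 0.38. In HFD-post against HFD-pre, Csf1r ranged from -0.074 to 0.17, Aif1 from -0.26 to 0.28, Cd163 from -0.13 to 0.11, C1qb from -0.062 to 0.22, Lyz2 from -0.10 to 0.25, Mrc1 from -0.12 to 0.11, Tyrobp from -0.46 to 0.035, C1qa from -0.029 to 0.39 and C1qc from -0.15 to 0.29. In the pooled diet comparison Cd68 ranged from -0.18 to 0.10.

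Other settings turned the sign of values that lay between -0.064 and 0.15. For diet, Cd163 at rest was -0.016 with array weights and -0.0056 with an adipocyte covariate, and Tyrobp was 0.035 with a fibroblast covariate. Cd68 was -0.057 after exercise with a red blood cell covariate, -0.047 with an adipocyte covariate, and 0.085 in the pooled comparison with a fibroblast covariate. For exercise in CON mice, C1qb was -0.033 with upper-quartile scaling, -0.031 with quantile normalization, -0.018 with array weights, -0.033 with the red blood cell covariate, -0.12 with the adipocyte covariate and -0.0069 with the fibroblast covariate. C1qc was -0.14 with the adipocyte covariate, and with a neutrophil covariate Cd68 was 0.056 and Tyrobp 0.18. For exercise in HFD mice, Csf1r was -0.023, -0.024 and -0.031 with scaling by upper quartiles, by median ratios and by quantiles, and under the last C1qb was -0.011, C1qc -0.0076, Lyz2 -0.019 and Aif1 -0.022. Aif1 was -0.20 with a pseudocount of 0.1. Array weights gave Cd163 0.00047, Mrc1 0.038 and Aif1 -0.0099. The red blood cell covariate gave Csf1r -0.051, C1qb -0.11, C1qc -0.042, Lyz2 -0.068 and Aif1 -0.10, and the adipocyte covariate gave Csf1r -0.21, C1qa -0.17, C1qb -0.21, C1qc -0.32, Lyz2 -0.20 and Aif1 -0.36. Mrc1 was 0.037 with the fibroblast and 0.0033 with the neutrophil covariate. The cause was not tested.

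The median of the 10 genes stayed below 0 in all alternatives of the diet comparisons, from -0.41 to -0.19 at rest and from -0.44 to -0.13 pooled. At least 12 resident macrophage genes had values below 0 in each of them (12 were tested at a mean of at least 1 FPKM, a setting that also leaves out Aif1). Lyve1 did not pass with the adipocyte covariate (0.38, limma adjusted p = 0.151). Fitting the compared groups alone gives no pooled or interaction value. The deviations of same-numbered libraries had correlations from -0.220 to 0.213 (24 pairs, 5 above 0.1). They were not set against libraries of different numbers, so whether the numbers pair mice was not tested. With the replicate block 0 of the 10 genes passed.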
